A study of Mus musculus with 12 samples.

Results

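*Cxcr3*, *Pnpla3*, *Socs1*, *Pard6g*, *Ccl2* and *Chrdl1* are 6 of the 24259 gene symbols measured in mouse oocytes that had lost *Lsm14b*. They were picked from the measured values themselves, because each was close to absent in one genotype and clearly present in the other. *Cxcr3*, *Pnpla3*, *Socs1* and *Pard6g* were high in wild type (WT) oocytes and low in the knockout (KO), and *Ccl2* and *Chrdl1* were low in WT and high in KO. Their levels in KO against WT are therefore given as a description, with no test. For *Pnpla3*, *Socs1*, *Pard6g* and *Chrdl1* the low genotype had a mean of at most 10% of the high genotype in both pools. *Ccl2* was far from absent in the WT RNP pool, at 44.3% of its KO mean, and *Cxcr3* still reached 16.3 FPKM in a KO RNP library.

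The study asked how LSM14B, an RNA-binding protein of the oocyte, affects the storage and translation of maternal mRNA. Fully grown oocytes at the germinal vesicle (GV) stage were collected from 3-week-old females, 46 h after 5 IU of pregnant mare serum gonadotropin. KO females were homozygous for Lsm14b tm1a(KOMP)Mbp, a reporter-tagged insertion on a C57BL/6J background that is carried by every cell of the animal, and the WT females shared that background and the same hormone treatment. About 1500 oocytes, treated with cycloheximide to hold ribosomes on the mRNA, were lysed and separated on a sucrose gradient, and RNA was sequenced from fractions 1 to 10 (the RNP pool, with little ribosome content) and 11 to 28 (the polysome pool). Each genotype and pool has 3 libraries, 12 in all, numbered 1 to 3 by the labels. The sources do not say whether the 3 came from separate animals, so p-values measure only the spread between these libraries.

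A GV oocyte transcribes little and lives on mRNA that it made earlier. Part of that mRNA is held in protein complexes without ribosomes, and part is loaded on polysomes and translated. The 6 genes come from pathways better known outside the oocyte. CXCR3 and CCL2 belong to chemokine signalling, in which a secreted ligand draws cells that carry the matching receptor, and SOCS1 is a feedback inhibitor of cytokine signalling through the JAK kinases. PNPLA3 acts on the lipids of lipid droplets, PARD6G is a scaffold of the Par complex that sets cell polarity, and CHRDL1 is a secreted protein that binds bone morphogenetic proteins (BMPs).

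Values are FPKM, fragments per kilobase of transcript with each library scaled to its mapped fragments, so levels of different genes can be compared per length. *Lsm14b* itself lay between 11.3 and 34.6 FPKM in the 6 WT libraries and at most at 0.893 in the 6 KO libraries. All 12 libraries thus fitted the genotype in their labels, while the pool and the library number were not checked by it. The change of *Lsm14b* from WT to KO was -3.67 (SE 0.42) in polysomes (adjusted p = 0.00271) and -4.63 (SE 0.35) in the RNP pool (adjusted p = 5.66e-05). Both are on log2(FPKM + 1), from limma with Benjamini-Hochberg adjustment. Across all genes, 5.64% rose and 4.73% fell in KO polysomes at an adjusted p under 0.05, and 10.5% rose and 10.2% fell in the KO RNP pool. All 10 oocyte markers were present in the libraries. Depth, estimated from the steps between low FPKM values, was 4.75 to 7.75 M (mega) fragments per library. KO polysome library 2 stood apart, with 34.7% of its FPKM in its 10 most abundant genes against 11.6 to 14.7% elsewhere.

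**Figure D1:**
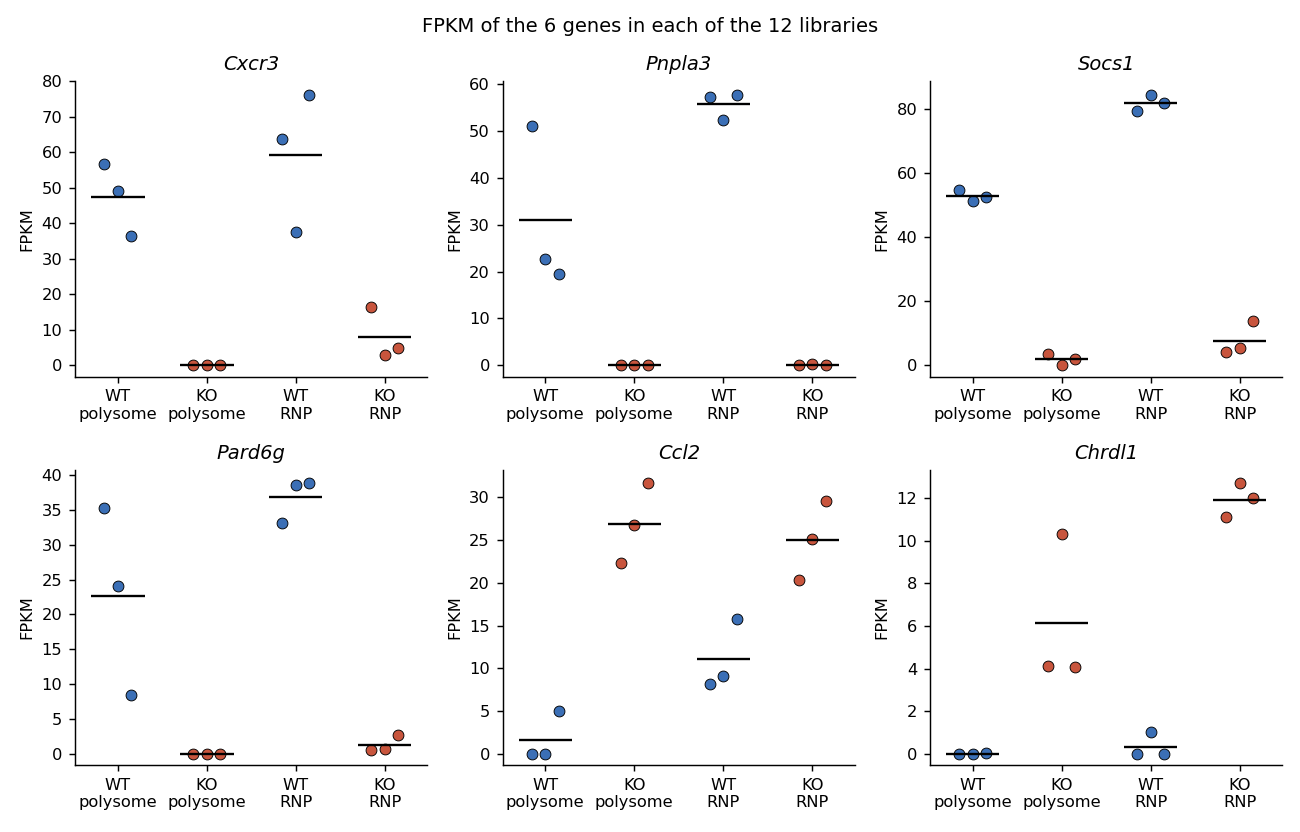
FPKM (vertical axis, linear, a separate scale for each gene) of the 6 genes in WT (blue) and KO (red) libraries of the polysome and RNP pools. Each point is a library and each line is the mean of 3. KO and WT points are separate in both pools for every gene, a contrast for which the genes were chosen. The narrowest gap is that of *Ccl2* in the RNP pool, where the highest WT library is at 15.8 and the lowest KO library at 20.3. Without overlap, 18.2% of all genes tested lay above WT and 13.4% below it in KO polysomes. In the KO RNP pool these shares were 20.7% and 18.4%.

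*Cxcr3* encodes the receptor of the interferon-induced chemokines CXCL9, CXCL10 and CXCL11. It lies at chrX:101731535-101734269 on the minus strand of GRCm38 (mm10), with 2 exons. In polysomes it was listed at 56.6, 49.1 and 36.3 FPKM in WT libraries 1, 2 and 3, and at 0 in each of the 3 KO libraries. RNP libraries listed it at 63.7, 37.5 and 76.2 FPKM in WT and at 16.3, 2.85 and 4.82 FPKM in KO. The groups did not overlap in either pool, yet the KO RNP pool kept 13.5% of the WT mean while the KO polysome libraries were all at 0. KO RNP library 1 held most of what was left, and without it *Cxcr3* would also have met a limit of 10% in that pool. An estimate from depth and transcript length puts 430 to 527 fragments behind each WT polysome value and 29.5 to 188 behind each KO RNP value.

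Few other chemokine receptors were detected. Of the 22 other receptors, 12 were listed at 0 in all 12 libraries and 14 never reached 1 FPKM. *Ccr3*, at 0 in the 3 WT polysome libraries and between 1.94 and 4.34 FPKM in KO, was the only other receptor with enough signal to be tested in polysomes, and it rose (log2 change 1.99, SE 0.43, adjusted p = 0.0238 from limma). Its call rests on the 3 KO libraries together, since without any 1 of them it was too low to be tested, and it was lost with a replicate block at an adjusted p of 0.0558. Being tested thus already required high KO values, and the call is no independent support for a rise. Among all genes tested, 5.64% rose in KO polysomes. In RNP 0 of the 3 tested passed the test. The ligands of CXCR3 were missing from these libraries. *Cxcl10*, *Cxcl11* and *Pf4* were listed at 0 in all 12, and *Cxcl9* reached at most 0.0465 FPKM.

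*Ccl2* encodes the chemokine that attracts monocytes through the receptor CCR2. It lies at chr11:82035571-82037453 on the plus strand, with 3 exons, and overlaps the annotated gene *Gm17268* on the opposite strand. In polysomes it was listed at 22.3, 26.7 and 31.6 FPKM in KO and at 0, 0 and 5.03 FPKM in WT, so the WT mean, 6.24% of that of KO, came from library 3 alone. In the RNP pool it was listed at 20.3, 25.1 and 29.5 FPKM in KO and at 8.19, 9.16 and 15.8 FPKM in WT. The 2 pools thus gave different pictures of the WT oocyte. The low side was close to absent in WT polysomes, while the WT RNP libraries held *Ccl2* at 44.3% of the KO mean, with only a 1.28-fold step from the highest WT to the lowest KO library. Among genes with a mean of 5 to 100 FPKM in the other libraries of their group, 4.14% were listed below 1 FPKM in the remaining WT polysome library, against 1.19% in KO polysomes, 1.55% in the WT and 0.284% in the KO RNP pool.

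The receptor *Ccr2* and the neighbouring chemokine genes *Ccl7* and *Ccl12* were listed at 0 in all 12 libraries. Of the 34 other chemokine ligands, 17 were at 0 throughout and 23 never reached 1 FPKM. In polysomes 0 of 5 ligands passed the test, and in the RNP pool 1 of 7 rose and 1 fell. Over all genes, 10.5% rose and 10.2% fell in the RNP pool. *Cxcl13*, a ligand that guides B cells, rose from at most 2.01 FPKM in WT to between 5.99 and 7.53 in the KO RNP pool (log2 change 2.39, SE 0.48, adjusted p = 0.00853 from limma). *Cxcl14* fell there from a mean of 16.7 ± 4.80 to 6.83 ± 1.35 FPKM (SD, n = 3; log2 change -1.16, adjusted p = 0.0216 from limma), a call that was lost without WT library 2, KO library 1 or KO library 2, at adjusted p up to 0.0813.

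*Chrdl1* encodes chordin-like 1, a secreted protein that binds BMP4. It lies at chrX:143285674-143394262 on the minus strand and was the lowest of the 6 genes on its high side. In polysomes it was listed at 4.12, 10.3 and 4.06 FPKM in KO and at 0, 0 and 0.0314 in WT. In the RNP pool it was listed at 11.1, 12.7 and 12 FPKM in KO and at 0, 1.03 and 0 in WT. The WT mean was 0.17% of the KO mean in polysomes and 2.88% in the RNP pool, and the groups did not overlap. Its 3 KO RNP values lay close together, while KO polysome library 2 held more than the other KO polysome libraries combined.

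Other secreted BMP antagonists were mostly low. Of the 16, 7 were at 0 in all 12 libraries, and 0 of the 6 tested passed the threshold in either pool. Among BMP ligands, receptors and SMADs, 0 of 11 passed the test in polysomes, and in the RNP pool 1 of 15 rose and 1 fell. Over all genes, 10.5% rose and 10.2% fell in the RNP pool. The oocyte growth factor *Gdf9* rose there from 3010 ± 146 to 4320 ± 233 FPKM (SD, n = 3; log2 change 0.52, adjusted p = 0.000458 from limma). The receptor gene *Acvr1* fell (log2 change -2.21, SE 0.52, adjusted p = 0.0166 from limma), a call lost without KO RNP library 1 or 3 at adjusted p of 0.0559 and 0.0575. Without any 1 of the 3 WT RNP libraries too few libraries reached 1 FPKM for *Acvr1* to be tested. Being tested thus already required high WT values, and the call is no independent support for a fall. *Bmp4*, the ligand named above, was listed at 0 in all 12 libraries, and the oocyte's own *Bmp15* was abundant in both genotypes, at 2830 ± 219 FPKM in WT and 2580 ± 331 in KO polysomes.

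Of 12 markers of granulosa and cumulus cells, which surround the oocyte, 3 of 7 tested rose in KO polysomes and 1 of 4 in RNP, and 0 fell. Over all genes, 5.64% rose in KO polysomes and 10.5% in the KO RNP pool. For *Inhba* and *Fshr* in polysomes and *Inha* in the RNP pool, only the 3 KO libraries reached 1 FPKM. Being tested there already required high KO values, so those calls are no independent support for a rise. Summed over the 12, they amounted to 27.9 to 76.3 FPKM in WT and 81.2 to 103 FPKM in KO polysomes, and to 31.3 to 35.3 FPKM in WT and 42.7 to 65.5 FPKM in KO RNP libraries. The sums did not overlap between genotypes, with the KO libraries above. In polysomes that separation came from 1 marker, *Inha*, at 39.4 to 51.4 FPKM in KO and 0 to 9.58 in WT. Without *Inha* the polysome sums overlapped, while the RNP sums did not. Of all single genes tested, 18.2% lay above WT without overlap in KO polysomes and 20.7% in the KO RNP pool. The sum of the 10 oocyte markers was also higher in KO without overlap, at 27700 to 30400 FPKM against 22200 to 24000 in polysomes and at 8520 to 9000 against 5730 to 5920 in RNP libraries. The inhibin subunit gene *Inha* was listed at 39.4 to 51.4 FPKM in KO and at 0 to 9.58 in WT polysomes (log2 change 3.27, SE 0.80, adjusted p = 0.0364 from limma), and rose in the RNP pool by 2.79 (SE 0.43, adjusted p = 0.00238). The polysome call was lost without any 1 of the KO libraries, at adjusted p of 0.0962 to 0.107, and in the RNP pool *Inha* was then too low to be tested. *Inhba* and *Fshr*, the other markers that rose in polysomes, were too low to be tested without any 1 KO polysome library. The *Fshr* call was also lost without WT polysome library 1 or 2, at adjusted p of 0.0502 to 0.0505 from limma. Of the other defining markers, *Gatm* was at 0 in all 12 libraries, *Foxl2* and *Amhr2* were at 0 in all but 1, and *Cyp11a1* was at 0.644 to 0.838 FPKM in WT and at most at 0.0971 in KO polysomes. The most abundant marker, the aromatase gene *Cyp19a1*, was listed at 62.0, 19.0 and 32.0 FPKM in WT and at 14.6, 23.5 and 34.5 in KO polysomes, and so did not follow the sum. In bulk RNA, a different number of such cells and a different amount of RNA in each cannot be told apart, and the part of these markers in the levels of *Ccl2* and *Chrdl1* was not tested.

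**Figure D2:**
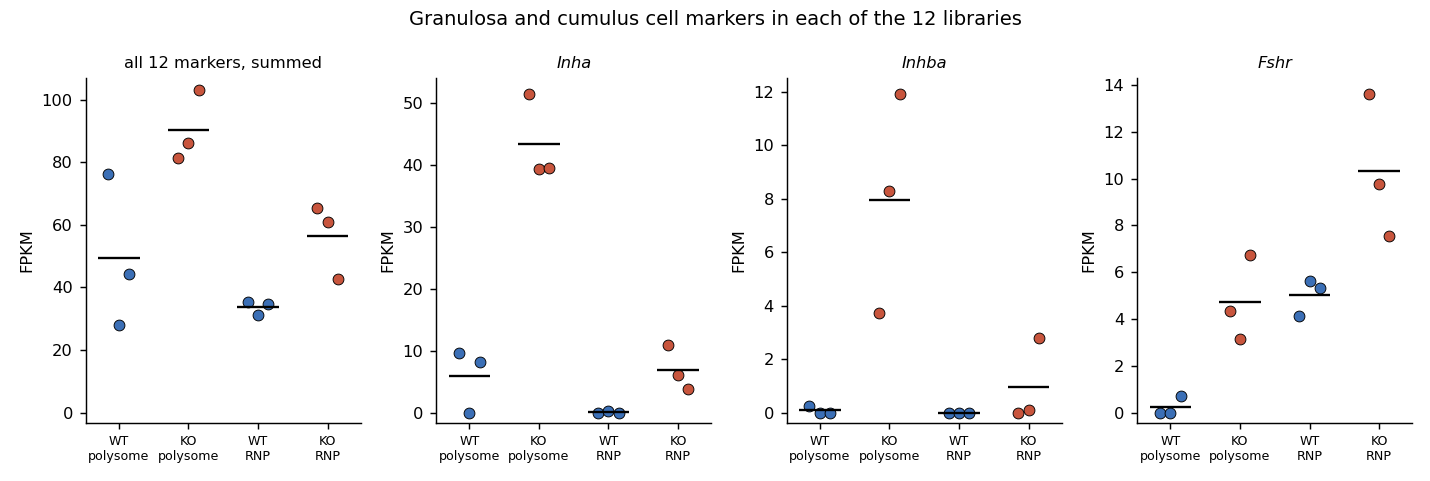
FPKM (vertical axes, linear) of the 12 granulosa and cumulus cell markers summed, and of *Inha*, *Inhba* and *Fshr*, in WT (blue) and KO (red) libraries of both pools. Points are libraries and lines are means of 3. The 3 single genes are the markers that passed the test as higher in KO polysomes, so they do not stand for the whole list. In KO polysomes *Inha* sits at 39.4 to 51.4 FPKM, above all WT polysome libraries.

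Leukocytes are a usual source of *Cxcr3* and *Ccl2*. Of 12 leukocyte markers, 6 were at 0 in all 12 libraries, among them *Ptprc*, *Cd3e* and *Itgam*. The summed markers lay at 39.6 to 49.3 FPKM in WT and 32.0 to 45.1 in KO polysomes, and at 61.2 to 148 FPKM in WT and 46.1 to 60.9 in KO RNP libraries. Most of it was *C1qb*, which reached 148 FPKM. The sum was higher in the WT than in the KO RNP libraries, as *Cxcr3* was, and the part of these markers in that difference was not tested. Theca and stroma markers summed to at most 2.58 FPKM and red blood cell markers to at most 0.468, and endothelial markers, led by *Pecam1*, lay between 14.7 and 42.5 FPKM with overlapping genotypes.

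*Socs1* encodes a suppressor of cytokine signalling that binds and inhibits JAK kinases. It lies at chr16:10782240-10785536 on the minus strand, with 2 exons. In polysomes it was listed at 54.6, 51.3 and 52.4 FPKM in WT and at 3.52, 0 and 1.95 in KO. RNP libraries listed it at 79.5, 84.5 and 82.0 FPKM in WT and at 4.08, 5.33 and 13.8 in KO. The WT libraries agreed more closely for *Socs1* than for any other of the 4 genes, with an SD of 1.64 FPKM for polysomes and of 2.49 FPKM for RNP. The KO mean was 3.46% of the WT mean in polysomes and 9.44% in the RNP pool, the latter above 10% without KO library 1 or 2.

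Within its family, *Socs1* was the member close to absent in KO, but 3 relatives were also lower in the RNP pool. Of 5 other SOCS genes tested there, 0 rose and 3 fell, and in polysomes 0 of 5 passed the test. Over all genes, 10.2% fell in the RNP pool. *Socs4* fell from 17.6 ± 5.04 to 3.34 ± 2.36 FPKM (SD, n = 3; log2 change -2.25, adjusted p = 0.0109 from limma), and *Socs3* from 12.7 ± 5.20 to 3.15 ± 1.32 FPKM (log2 change -1.72, adjusted p = 0.0131). *Socs6* fell from 41.5 ± 9.83 to 23.8 ± 4.87 FPKM (log2 change -0.77, adjusted p = 0.0422 from limma), a call lost without WT library 2 or 3 or KO library 2 or 3, at adjusted p of 0.0881 to 0.133. The median change of the 5 tested was -0.77 in the RNP pool, beside 0.05 over all genes, and 0.07 in polysomes, beside 0.10.

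Cytokine receptors, JAK kinases and STAT factors make up the pathway that SOCS1 restrains. Of 16 JAK-STAT and cytokine receptor genes tested in each pool, 0 rose and 1 fell in polysomes, and 1 rose and 1 fell in the RNP pool, beside the shares over all genes given above. *Pias4*, a SUMO ligase that restrains STAT activity, fell in the RNP pool from 64.9 ± 4.91 to 35.0 ± 5.31 FPKM (SD, n = 3; log2 change -0.88, adjusted p = 0.0054 from limma). In polysomes it fell by 0.79 on the log2 scale (adjusted p = 0.0443 from limma), a call lost without any single library of the 6, at adjusted p of 0.0656 to 0.156. *Jak1*, a kinase that SOCS1 inhibits, rose in the RNP pool from 10.4 ± 2.55 to 22.5 ± 0.614 FPKM (log2 change 1.06, adjusted p = 0.0118 from limma), but not without KO library 2, at an adjusted p of 0.0503. *Ifngr1*, a chain of the interferon-gamma receptor, was at 0 in all 12 libraries.

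Interferon-induced genes were mostly at or near 0. Of 24, 10 were at 0 throughout and 15 never reached 1 FPKM. In polysomes 0 of 5 tested rose and 1 fell, and in the RNP pool 1 of 7 rose and 1 fell. Over all genes, 5.64% rose and 4.73% fell in polysomes, and 10.5% rose and 10.2% fell in the RNP pool. *Irf1*, a transcription factor of the interferon response, fell from 132 ± 15.6 to 63.8 ± 12.5 FPKM in polysomes (SD, n = 3; log2 change -1.05, adjusted p = 0.0125 from limma) and from 210 ± 13.1 to 77.0 ± 1.72 FPKM in the RNP pool (log2 change -1.43, adjusted p = 5.11e-05). *Ifitm3*, an antiviral membrane protein, rose in the RNP pool by 0.81 (SE 0.19, adjusted p = 0.015 from limma), a call lost without KO library 1 at an adjusted p of 0.0616.

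*Pnpla3* encodes a lipid-droplet enzyme with lipase and acyltransferase activity. It lies at chr15:84167837-84187236 on the plus strand, with 8 exons. In polysomes it was listed at 51.1, 22.6 and 19.4 FPKM in WT and at 0, 0.0427 and 0.0448 in KO. In the RNP pool it was listed at 57.3, 52.4 and 57.8 FPKM in WT and at 0.0291, 0.196 and 0.0674 in KO. The KO mean was 0.0941% of the WT mean in polysomes and 0.175% in the RNP pool. In the KO RNP libraries its mean was the lowest of the 4 genes that were high in WT. WT polysome library 1 held more than the other WT polysome libraries combined.

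Of the PNPLA family and neutral lipid genes, 1 of 15 tested in polysomes and 2 of 14 in RNP rose, and 0 passed the test as lower in either pool. Over all genes, 5.64% rose in polysomes and 10.5% in RNP. The count of lower genes in RNP was 1 without WT library 3 and 2 without KO library 3. *Plin2*, the lipid droplet coat protein, rose from 6.69 ± 3.02 to 46.3 ± 1.58 FPKM in polysomes (SD, n = 3; log2 change 2.69, adjusted p = 0.00311 from limma) and from 4.51 ± 3.24 to 35.2 ± 2.72 FPKM in the RNP pool (log2 change 2.95, adjusted p = 0.00275). *Abhd5*, the co-activator of the lipase PNPLA2, rose in the RNP pool from 3.92 ± 1.78 to 9.71 ± 1.04 FPKM (log2 change 1.19, adjusted p = 0.0395 from limma), a call lost without WT library 1 or 2 or any KO library, at adjusted p of 0.0671 to 0.128. The lipase genes *Pnpla2*, *Pnpla8* and *Lipe* lay below WT in KO polysomes without overlap and did not pass the test, while 13.4% of all genes tested there lay below without overlap. *Pnpla2* was listed at 19.2 to 28.3 FPKM in KO against 38.0 to 43.1 in WT polysomes.

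The promoters of *Socs1* and *Pnpla3* are shown because both genes were close to absent in KO in both pools and these stretches hold matches to the motifs searched. Each is the 250 bases before the gene's start in RefSeq on GRCm38.p6, 5′ to 3′ on the gene's strand, at chr16:10785537-10785786 on the minus strand for *Socs1* and at chr15:84167566-84167815 on the plus strand for *Pnpla3*. Capitals mark the matches.
Socs1: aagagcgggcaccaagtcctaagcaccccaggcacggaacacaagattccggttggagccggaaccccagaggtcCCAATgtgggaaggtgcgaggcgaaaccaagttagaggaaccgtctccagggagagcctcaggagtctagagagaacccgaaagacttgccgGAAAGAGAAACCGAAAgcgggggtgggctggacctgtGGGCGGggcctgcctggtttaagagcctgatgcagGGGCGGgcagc
Pnpla3: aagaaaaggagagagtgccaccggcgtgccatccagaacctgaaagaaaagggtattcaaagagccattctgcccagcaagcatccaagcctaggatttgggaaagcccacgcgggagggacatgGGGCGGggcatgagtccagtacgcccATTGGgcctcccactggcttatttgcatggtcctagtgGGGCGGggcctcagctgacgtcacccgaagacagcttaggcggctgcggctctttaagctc

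The longest run of capitals in *Socs1*, between its middle and the gene's start, holds 2 overlapping matches to the core of the interferon-stimulated response element, searched as GAAA, any 2 bases and GAAA again, which 2.98% of 32851 promoters of this length held on either strand. The same stretch held 2 GC boxes (GGGCGG, in 32.7% of promoters) and a CCAAT box (CCAAT, in 33.8%). *Pnpla3* held 2 GC boxes and a CCAAT box read on the opposite strand, and no match to that core. *Cxcr3* held none of these, and none of the 3 promoters held the interferon-gamma activated sequence TTCNNNGAA (7.02%), CACGTG (6.02%) or TATAAA (12.4%).

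*Pard6g* encodes a member of the PAR6 family, scaffolds that join atypical protein kinase C to CDC42 at the cell cortex. It spans 72.8 kb of chromosome 18, from 80046890 to 80119639 on the plus strand, with 3 exons. In polysomes it was listed at 35.3, 24.1 and 8.42 FPKM in WT and at 0 in each KO library. RNP libraries listed it at 33.1, 38.5 and 38.8 FPKM in WT and at 0.531, 0.696 and 2.67 in KO. The groups did not overlap, and the KO mean was 3.53% of the WT mean in the RNP pool. The WT polysome libraries were spread over a wide range, with library 3 far below the others, while the WT RNP libraries agreed.

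Several other Par polarity genes were lower in KO as well. Of 16 others tested in polysomes, 1 rose and 3 fell, and of 16 in the RNP pool, 1 rose and 6 fell. Over all genes, 4.73% fell in polysomes and 10.2% in the RNP pool. The medians of the list were -0.82 and -0.42, beside 0.10 and 0.05 over all genes. The paralog *Pard6b* fell from 26.8 ± 5.20 to 5.14 ± 3.36 FPKM in polysomes (SD, n = 3; log2 change -2.33, adjusted p = 0.0181 from limma), which was 0.0505 without KO library 3, and from 50.7 ± 9.65 to 12.5 ± 3.17 FPKM in the RNP pool (log2 change -1.95, adjusted p = 0.000661). The paralog *Pard6a*, the most abundant of the 3, stood at 69.2 ± 22.8 FPKM in WT and 43.2 ± 11.4 in KO polysomes and did not pass the test. Thus KO polysomes listed *Pard6g* at 0, kept *Pard6b* at 1.86 to 8.56 FPKM and *Pard6a* at 30.0 to 50.0.

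The GTPase *Cdc42*, which binds PAR6 proteins, went the other way. It rose from 191 ± 7.93 to 373 ± 42.9 FPKM in polysomes (SD, n = 3; log2 change 0.96, adjusted p = 0.00384 from limma) and from 115 ± 3.82 to 186 ± 6.12 FPKM in the RNP pool (log2 change 0.69, adjusted p = 0.00144). The related GTPase *Rac1* fell in polysomes from 110 ± 14.6 to 52.7 ± 1.38 FPKM (log2 change -1.04, adjusted p = 0.00782 from limma). In the RNP pool the basolateral polarity genes *Llgl1* (log2 change -1.13, adjusted p = 0.00251) and *Llgl2* (-1.77, adjusted p = 0.008) and the adaptor *Lin7c* (-1.43, adjusted p = 0.0141) also fell in limma. *Prkci*, the atypical protein kinase C that PAR6 binds, fell there from 5.91 ± 3.26 to 0.716 ± 0.600 FPKM (log2 change -1.95, adjusted p = 0.0173 from limma), a call lost without KO library 2 or 3 at adjusted p up to 0.0654. *Crb3*, an apical membrane protein, fell in polysomes (log2 change -1.20, adjusted p = 0.0493 from limma) and in the RNP pool (-0.66, adjusted p = 0.033). The first call was lost without WT library 1 or 3 or any KO library, at up to 0.141, and the second without WT library 1 or 3 or KO library 2 or 3, at up to 0.117.

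**Figure D3:**
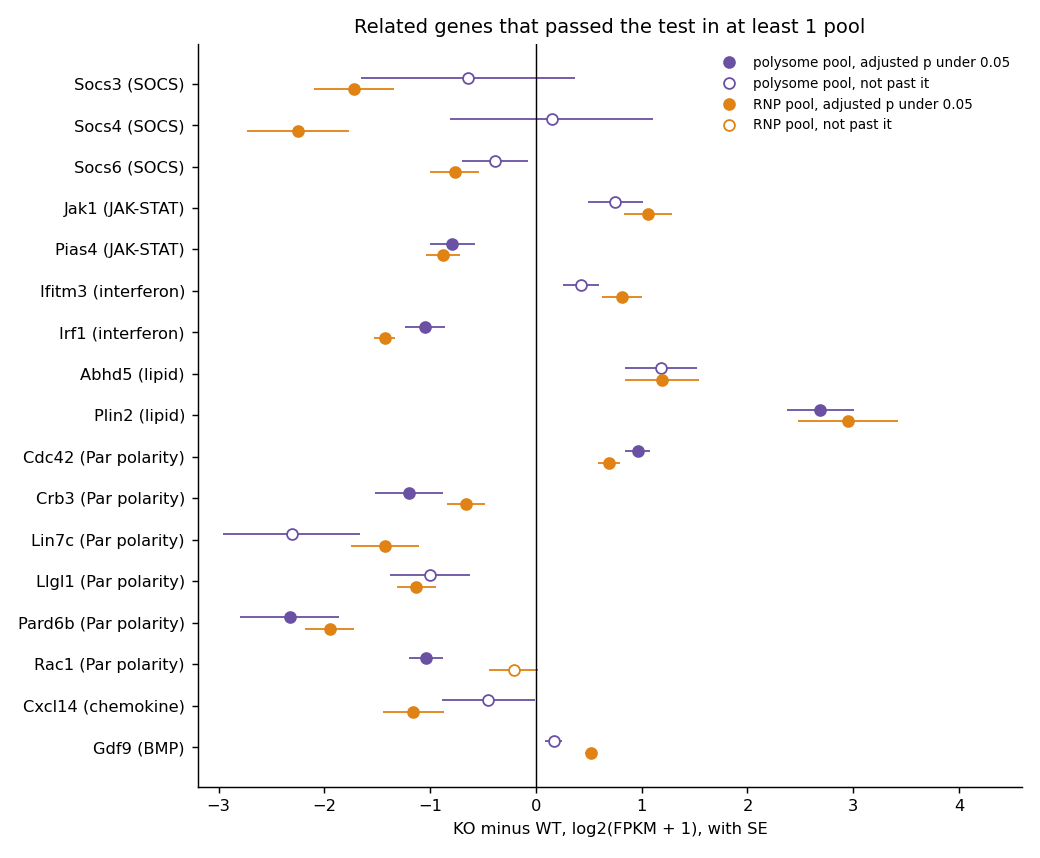
Change from WT to KO on log2(FPKM + 1) (horizontal axis) with its SE for related genes that passed the test in at least 1 pool and averaged at least 5 FPKM, in polysomes (purple) and the RNP pool (orange). Filled points have an adjusted p under 0.05. *Pard6b*, *Irf1*, *Crb3* and *Pias4* lie left of 0 and *Plin2* and *Cdc42* right of 0 with filled points in both pools.

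The size of these differences can be placed in the whole table by counting genes with at least 5 FPKM in each library of one genotype and a mean of at most 10% of it in the other. In polysomes 33 of 5210 such genes (0.633%) were close to absent in KO, among them *Cxcr3*, *Pnpla3*, *Socs1* and *Pard6g*, and 28 of 5565 (0.503%) were close to absent in WT, among them *Ccl2*. In the RNP pool 40 of 5603 (0.714%) were close to absent in KO, among them *Pnpla3*, *Socs1* and *Pard6g*, and 12 of 5762 (0.208%) in WT, among them *Chrdl1*. *Chrdl1* missed the polysome count because KO libraries 1 and 3 lay under 5 FPKM, *Cxcr3* missed the RNP count at 13.5%, and *Ccl2* missed it at 44.3%. Without WT library 2, WT library 3 or KO library 2, the KO polysome count was 62, 52 and 52, and without WT library 1, KO library 1 or KO library 3, the WT RNP count was 25, 22 and 20. The WT polysome count was 38 without KO library 2 and 44 to 49 without any other library. In both pools at once, 11 genes were close to absent in KO, namely *Insm1*, *Lsm14b*, *Pabpn1l*, *Pard6g*, *Pnpla3*, *Rilpl1*, *Socs1*, *Spry1*, *Tfap2c*, *Zc3h6* and *Zfp3*, and 1 gene in WT, the histone gene *Hist1h1e*. Those that are neither members nor *Lsm14b* were named after their values were seen. With each KO polysome library listed at 0 in place of the 10% limit, an alternative chosen after seeing the data, 3 genes were left, of which *Cxcr3* and *Pard6g* are 2.

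**Figure D4:**
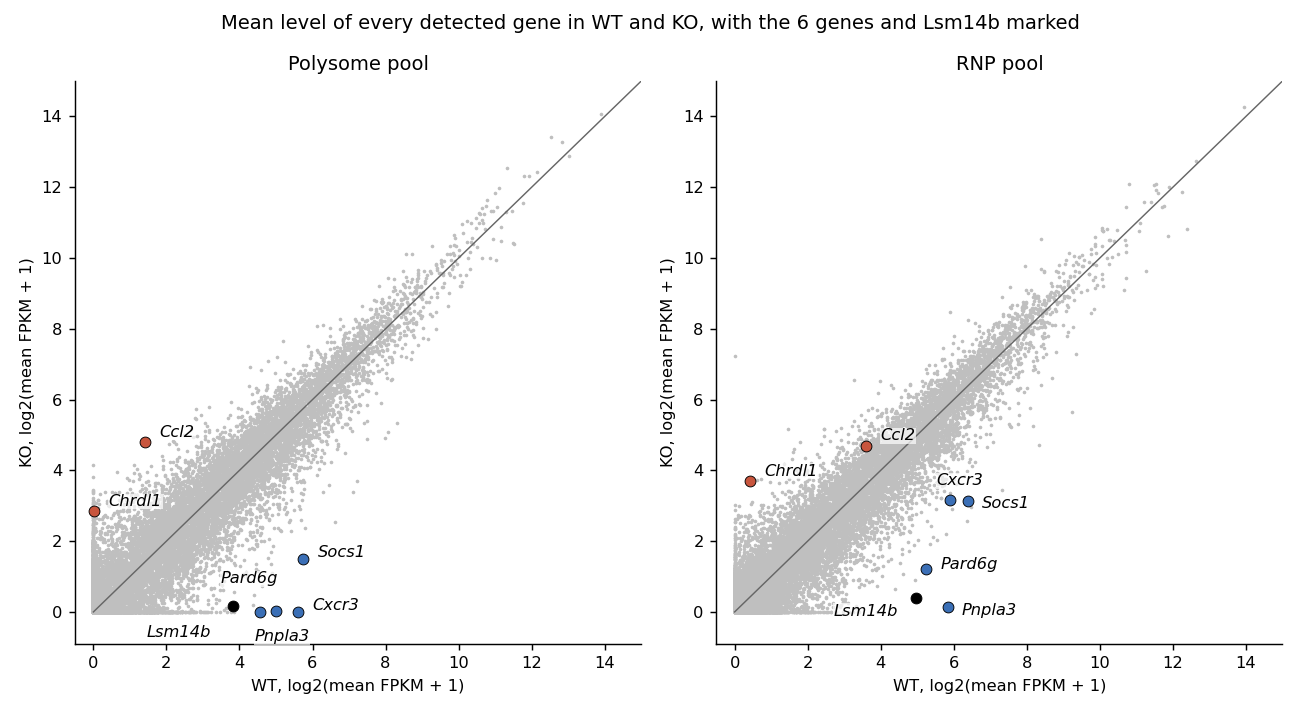
Mean level of each detected gene in WT (horizontal axis) and KO (vertical axis) on log2(mean FPKM + 1), for the polysome pool (left) and the RNP pool (right), with the line of equal levels. The genes high in WT are blue, those high in KO red, and *Lsm14b* black. *Cxcr3*, *Pnpla3*, *Socs1* and *Pard6g* lie far below the line in both pools, while *Ccl2* lies far above it in polysomes and near the cloud in the RNP pool.

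In the genotype with clear signal, the 4 genes high in WT lay between percentiles 51.2 and 91.9 of the genes detected in a library, *Ccl2* between 74.1 and 79.8 and *Chrdl1* between 38.7 and 65.3. In WT polysomes the order was *Socs1* (52.8 ± 1.64 FPKM, SD, n = 3), *Cxcr3* (47.3 ± 10.3), *Pnpla3* (31.0 ± 17.4) and *Pard6g* (22.6 ± 13.5), and each overlapped the next. In the WT RNP pool the order was the same, from *Socs1* (82.0 ± 2.49) to *Cxcr3* (59.2 ± 19.7), *Pnpla3* (55.8 ± 2.98) and *Pard6g* (36.8 ± 3.24), where *Socs1* lay above *Cxcr3* and *Pnpla3* above *Pard6g* without overlap, while *Cxcr3*, at 37.5 to 76.2, overlapped both *Pnpla3* and *Pard6g*. In KO, *Ccl2* was above *Chrdl1* in both pools without overlap.

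The FPKM of these genes in the polysome and RNP pools was compared in the genotype with clear signal. The genes were chosen for that signal in these same libraries, so the test is not independent of the choice, though the choice compared genotypes and not pools. Each pool was scaled to its own mapped fragments, so a difference does not show what share of an mRNA was on polysomes. In WT, 7.97% of all genes tested were enriched in polysomes and 6.72% in RNP. In KO, the shares were 15.5% and 13.8%. Of the 6 genes, 1 passed the test. *Socs1* was lower in WT polysomes than in the WT RNP pool, at 64.3% of its level (log2 difference -0.63, SE 0.16, adjusted p = 0.0312 from limma), with all 3 polysome libraries below all 3 RNP libraries. That call was lost without any single library of the 6, at adjusted p of 0.0508 to 0.108, and its difference stayed between -0.65 and -0.60.

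The other 5 genes did not pass the test, and for each the interval of the difference on log2(FPKM + 1) is given. *Pnpla3* stood in WT polysomes at 55.6% of its RNP level, without overlap (-0.96, 95% interval -1.73 to -0.18, adjusted p = 0.0987 from limma). *Pard6g* stood at 61.4% with overlap (-0.88, -1.91 to 0.14, adjusted p = 0.236), and *Cxcr3* at 80.0% with overlap (-0.28, -0.95 to 0.39, adjusted p = 0.576). *Chrdl1* stood in KO polysomes at 51.6% of its RNP level, without overlap (-0.96, -1.74 to -0.18, adjusted p = 0.0671 from limma), and *Ccl2* at 108% with overlap (0.10, -0.37 to 0.57, adjusted p = 0.75). WT polysome library 1 decided the value of *Pnpla3* and KO polysome library 2 that of *Chrdl1*, since without them the differences were -1.37 (adjusted p = 0.008) and -1.34 (adjusted p = 0.0078).

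**Figure D5:**
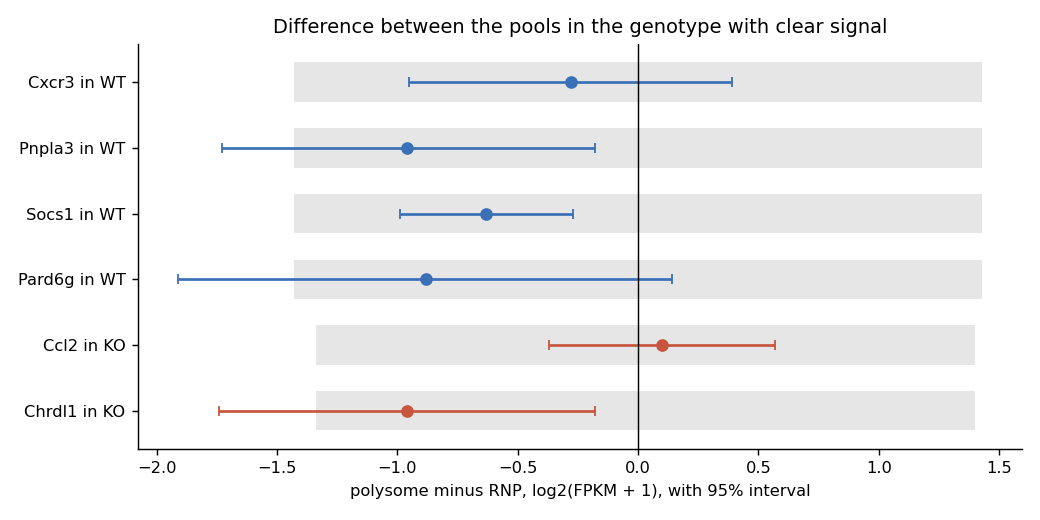
Difference between the polysome and RNP pools on log2(FPKM + 1) (horizontal axis) for each gene in the genotype where it was high, WT (blue) or KO (red), with its 95% interval from limma. Grey bars span the 5th to 95th percentile of all genes tested in that genotype, -1.43 to 1.43 in WT and -1.34 to 1.40 in KO. The 6 points lie inside these bars, and 5 of them left of 0.

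On the low side the pools are only described, since the genes were chosen for being close to absent there. *Cxcr3* and *Pard6g* were at 0 in the 3 KO polysome libraries and at 2.85 to 16.3 and 0.531 to 2.67 FPKM in the KO RNP libraries. *Socs1* had 23.6% of its KO RNP mean in KO polysomes, against 64.3% in WT. *Ccl2* had 15.2% of its WT RNP mean in WT polysomes, against 108% in KO. Each pool was scaled to its own mapped fragments, so these percentages are ratios of FPKM and not shares of an mRNA on polysomes.

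Some genes outside the 6 had nearly the same profile over the 12 libraries, measured as the mean absolute difference when each gene is set to a percent of its own highest library, among 9186 genes. *Lsm14b* was among the 3 nearest to *Pnpla3*, at 8.05 percentage points, behind *Rilpl1* at 6.77. *Rilpl1* was also nearest to *Pard6g*, at 7.62, though *Pnpla3* itself was nearer to *Pard6g*, at 5.80. *Socs1* was nearest to *Pfdn4* (6.56), *Tmem131* (6.57) and *Tfap2c* (6.96), and *Cxcr3* to *Tmem102* (6.69), *Eps8l2* (8.90) and *Cobl* (9.49). *Exosc3* (8.73) was the third nearest to *Pnpla3*, and *Chst11* (8.92) and *Pfdn4* (9.34) followed *Rilpl1* for *Pard6g*.

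The genes high in KO had looser matches. *Ccl2* was nearest to *Amer1* (10.1), *Vrtn* (10.2) and *Slc30a2* (11.1), and *Chrdl1* to *Abce1* (9.46), *Tceal8* (10.1) and *Epha7* (10.4). *Ccl2* and *Chrdl1* differed from each other by 22.2 percentage points. *Tceal8* stood at 7.94 ± 1.03 FPKM in WT and 53.9 ± 1.28 in KO polysomes (SD, n = 3), and *Vrtn* at 68.1 ± 27.2 and 269 ± 48.1.

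The genes next to the 6 on the chromosome give a comparison from the same region. Of the 12 nearest protein-coding genes of the table, taken on each side, 4 had enough signal to be tested in polysomes and 6 in RNP, and 0 of these passed the test in limma with all libraries. *Samm50*, 5.00 kb from *Pnpla3*, never exceeded 1.34 FPKM. *Adnp2*, 6.67 kb from *Pard6g*, was at 6.63 to 20.2 FPKM in WT and 22.0 to 34.0 in KO polysomes, opposite to *Pard6g* (log2 change 1.19, SE 0.41, adjusted p = 0.102 from limma, and 1.61 at an adjusted p of 0.0305 without WT library 2). *Tnp2*, 2.40 kb from *Socs1*, was listed at 0.797 to 7.13 FPKM in WT and at 0 in the 3 KO polysome libraries, which left it too low for the test there. *Ogt*, 47.2 kb from *Cxcr3*, differed by -0.10 (SE 0.45, adjusted p = 0.913).

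CCUCUC is the hexamer that the study names for the RNA sites of LSM14B, so the transcripts of the 6 genes were searched for it. In the longest coding transcript of GENCODE M21 it occurred 1 time in *Cxcr3*, *Pnpla3*, *Pard6g* and *Ccl2* and 3 times in *Socs1* and *Chrdl1*, while 62.1% of 21877 coding genes hold it at least 1 time. Per kilobase this is 0.318 in *Pard6g* and 0.578 to 1.23 in the other 5, beside a median of 0.315 over coding genes. The sites lie in the coding sequence of *Cxcr3*, *Pnpla3* and *Pard6g*, in the 3′ UTR of *Socs1* and *Ccl2*, and in the 5′ UTR (1) and 3′ UTR (2) of *Chrdl1*. They occur in genes of both directions and are matches of letters, not measured binding. For 2 genes the deposited loci differ from GENCODE M21. The *Pnpla3* locus runs on to 84189521, past the end of the searched gene at 84187236, and that part was not searched. The *Socs1* locus, 10783808 to 10785536, leaves out the site at 10783252-10783277.

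The 26 bases around a site are shown for 4 genes, to let the sites low and high in KO be compared. They are written 5′ to 3′ as DNA from GENCODE M21 on GRCm38, with the hexamer in capitals. The *Cxcr3* site lies in the coding sequence at chrX:101732969-101732994 on the minus strand, and the *Socs1* site in the 3′ UTR at chr16:10784052-10784077 on the minus strand. The *Ccl2* site lies in the 3′ UTR at chr11:82037286-82037311 on the plus strand, and the *Chrdl1* site in the 5′ UTR at chrX:143390130-143390155 on the minus strand.
Cxcr3: gaaaacagcaCCTCTCcctacgatta
Socs1: cctcatcccaCCTCTCaggggtgggg
Ccl2: tccatttttcCCTCTCtgtgaatcca
Chrdl1: gtccaccgctCCTCTCcttggagccc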

How the data were processed

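RNA of the polysome and RNP pools was sequenced in 12 libraries, made by Smart-seq2 chemistry with 150 bp paired reads. Reads were aligned by the authors with TopHat2 2.0.13 (genome mm10), and they deposited FPKM per gene symbol and library from Cufflinks 2.2.1; the annotation release is not given in the sources used here. FPKM holds no counts, so depth is an estimate and no counting intervals are given. The deposited log2 changes, p-values and q-values of the authors' Cuffdiff comparisons were not used.

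Groups and replicate numbers came from the sample labels. The 6 genes and the lists of related and marker genes were chosen with earlier results of these data known. Genes with at least 1 FPKM in at least 3 of the 6 libraries of a comparison were tested on log2(FPKM + 1) with limma 3.58.1 in R 4.3.3 (empirical Bayes with intensity trend, two-sided, Benjamini-Hochberg over all genes tested, threshold 0.05), which was tested on simulated data first. For KO against WT, a simulated log2 change of 1 was called in 2.5% of changed genes in polysomes and 11% in RNP. A change of 2 was called in 50% and 64%. Each simulation changed 200 genes, fewer than the 989 and 2057 called for KO against WT, so these rates need not hold for the data. Between the WT pools, 7.14% of 14 calls at a change of 1 and 7.32% of 123 calls at 2 were false, above the threshold. The other comparisons had at most 4.35%. A gene that did not pass the test may therefore still have changed. A log2 change with 1 FPKM added understates the change of low genes. Named are the 6 genes, *Lsm14b*, up to 3 genes per list and direction past the threshold and averaging 5 FPKM or more, the nearest gene on each side, and the 3 most similar profiles; *Ccr3*, *Cxcl13*, *Acvr1*, *Llgl2*, *Prkci* and the values of other relatives and markers were named after their values were seen. Fragments were estimated as FPKM times transcript length less 200 bases. Alternatives were other pseudocounts, filters, scalings, a fit without the intensity trend, a replicate block, and leaving out each library. Python 3.11.15, pandas 2.3.3 and matplotlib 3.10.9 were used for tables and figures. Promoters came from RefSeq (3 of the 6 genes had an entry) and transcripts from GENCODE M21.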

Additional observations from a re-analysis of the deposited data

How the results depend on the processing

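Genes called at an adjusted p under 0.05 numbered 1406 between the WT pools, 2881 between the KO pools, 989 for KO against WT in polysomes and 2057 in the RNP pool. Without the intensity trend the first fell to 728 and the polysome comparison to 508, and with no filter on low values the latter was 545. Leaving out each library in turn gave 780 to 1212, 2030 to 2909, 383 to 790 and 1255 to 1911; such fits have fewer samples.

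The difference of *Ccl2* between the KO pools turned from 0.10 to -0.02 without KO polysome library 3 and to -0.03 without KO RNP library 1, and lay between -0.03 and 0.23 over all 6 such fits, with no call. The call of *Socs1* between the WT pools was also lost without the intensity trend, at an adjusted p of 0.112. The cause was not tested. The calls of *Cdc42* and *Irf1* in polysomes and of *Gdf9* and *Ifitm3* in RNP were lost without the trend, at adjusted p of 0.057 to 0.0736. With no filter, *Pard6b* in polysomes and *Acvr1*, *Cxcl14*, *Prkci* and *Abhd5* in RNP were lost, at 0.0506 to 0.0914. *Inha* and *Pias4* in polysomes, *Crb3* in both pools and *Socs6* in RNP were each lost under 3 to 6 settings that left out no library.

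Same-numbered libraries did not deviate together (correlations of -0.024 to 0.016 over the 4 comparisons), so the numbers were not taken to pair them. With a replicate block the counts were 1165, 2720, 672 and 1799, and *Socs1* had an adjusted p of 0.0747 between the WT pools.

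For the genes close to absent, a limit of 5% in place of 10% gave 15 in KO and 14 in WT polysomes, 12 in KO and 3 in WT RNP libraries, and 4 (KO) and 0 (WT) in both pools. A minimum of 10 FPKM gave 7 in WT polysomes. With each library of the low genotype at 0, chosen after seeing the data, these counts were 3, 8, 1, 0, 0 and 0. Leaving out a library gave 39 to 62, 38 to 49, 36 to 56, 12 to 25, 10 to 14 and 0 to 3, in the same order.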
